A study of Mus musculus with 11 samples.

Results

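Interneurons of the hippocampus, the inhibitory cells that release GABA onto pyramidal and granule cells, are recognised by a small set of transcripts. The set described here was chosen by gene name and holds 10 of the 36826 genes of the deposited table: Gad1, Gad2, Slc32a1, Sst, Npy, Vip, Cck, Pvalb, Reln and Lamp5. All 10 were found once each and all 10 passed the filter on low values, a value of FPKM (fragments scaled to transcript length and library size) of at least 1 in at least 3 libraries, as did 14428 genes in all. Bulk RNA sequencing had been done on hippocampal tissue at 14 months of age. The APP/PS1 groups comprised 4 libraries from a rotating magnetic field of 0.4 T (RMF) and 3 from sham exposure (sham 1, 3 and 4), and 4 libraries came from age-matched C57BL/6J wild-type animals (WT). APP/PS1 mice carry amyloid-related transgenes and deposit plaques with age; both APP/PS1 groups carry them, and the sources used here name no promoter for them. Exposure or sham exposure lasted 12 months on 5 working days per week, starting at an age of 2 months with 3 h daily and changing to 6 h daily at 11 months. For the WT libraries no exposure or sham exposure was recorded, so genotype and handling cannot be told apart in comparisons with WT. The labels name neurons as the cell type, yet no isolation step is recorded, and microglial markers summed to at least 340 CPM (counts scaled to library size) in every library. Nothing in the labels ties libraries to separate animals, and the protocol speaks of pooled RNA. The p-values therefore measure only how these libraries vary, which may be technical.

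As background, the enzymes encoded by Gad1 and Gad2 make GABA from glutamate and the transporter encoded by Slc32a1 loads it into vesicles, so these genes mark inhibitory neurons in general. The other members mark subtypes. Sst (somatostatin) and Npy (neuropeptide Y) are inhibitory peptides often made by the same cells, among them the dendrite-targeting interneurons of the stratum oriens and the dentate hilus. Vip (vasoactive intestinal peptide) marks interneurons that contact other interneurons, Pvalb (the calcium buffer parvalbumin) marks fast-spiking basket cells, and Reln (the secreted matrix protein reelin) and Lamp5 (a lysosome-associated membrane protein) mark neurogliaform cells. Several members are not confined to interneurons: pyramidal cells of the hippocampus and neocortex also express Cck, upper-layer neocortical neurons express Lamp5, Cajal-Retzius cells express Reln, and fast skeletal muscle fibres express Pvalb.

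The sequences upstream of the peptide genes are shown because Npy and Sst were the members whose RMF libraries did not overlap WT, Vip and Cck are the other peptide genes, and Sst is the classical gene with a cAMP response element, the palindrome TGACGTCA, in its promoter. Each line holds the 250 bases before the annotated start, 5′ to 3′ on the gene's strand, from RefSeq on build GRCm38.p6. Capitals mark the 5-base core of that element, TGACG or CGTCA, wherever a script found it; the pair overlaps in the full element.
Sst, chr16:23890845-23891094, minus strand: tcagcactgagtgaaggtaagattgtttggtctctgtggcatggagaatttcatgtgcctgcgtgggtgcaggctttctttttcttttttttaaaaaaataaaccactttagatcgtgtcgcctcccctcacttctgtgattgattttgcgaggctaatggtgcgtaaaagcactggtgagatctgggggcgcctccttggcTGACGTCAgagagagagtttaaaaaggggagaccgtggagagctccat
Npy, chr6:49822460-49822709, plus strand: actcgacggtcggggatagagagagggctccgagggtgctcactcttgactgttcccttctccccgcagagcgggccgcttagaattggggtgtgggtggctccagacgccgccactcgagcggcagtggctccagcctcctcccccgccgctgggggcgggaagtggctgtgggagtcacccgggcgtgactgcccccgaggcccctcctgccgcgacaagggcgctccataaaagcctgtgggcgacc
Vip, chr10:5638968-5639217, plus strand: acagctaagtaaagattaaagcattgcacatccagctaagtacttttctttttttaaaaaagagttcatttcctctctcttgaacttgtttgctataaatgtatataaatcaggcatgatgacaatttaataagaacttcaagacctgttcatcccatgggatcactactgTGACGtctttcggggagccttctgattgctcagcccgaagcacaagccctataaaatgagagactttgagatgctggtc
Cck, chr9:121495695-121495944, minus strand: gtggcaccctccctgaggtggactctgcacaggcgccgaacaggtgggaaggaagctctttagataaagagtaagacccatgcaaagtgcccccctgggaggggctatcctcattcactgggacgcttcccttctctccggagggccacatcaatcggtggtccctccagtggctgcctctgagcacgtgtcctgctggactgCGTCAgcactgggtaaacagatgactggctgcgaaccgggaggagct
The full element was found for 1 of the 10 genes, Sst, 48 bases before the start, and in 1.55% of all 32851 RefSeq windows of this length. The core was found for 4 genes, Sst, Vip (79 bases before the start), Cck (47 bases) and Gad2 (33 bases), and in 17.8% of all windows. Pvalb and Lamp5 have more than 1 annotated start, and none of their windows held the core. In the deposited table Gad1 (ENSMUSG00000070880), Gad2 (ENSMUSG00000026787), Slc32a1 (ENSMUSG00000037771) and Lamp5 (ENSMUSG00000027270) lie on chromosome 2, Reln (ENSMUSG00000042453) on 5, Npy (ENSMUSG00000029819) on 6, Cck (ENSMUSG00000032532) on 9, Vip (ENSMUSG00000019772) on 10, Pvalb (ENSMUSG00000005716) on 15 and Sst (ENSMUSG00000004366) on 16. A match describes letters and is not evidence of binding, and a missing match says nothing about regulation.

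Levels per transcript length (FPKM) spanned a wide range among the members. In RMF libraries Cck averaged 133 ± 41.5 FPKM and Sst 113 ± 11.2 FPKM (SD, n = 4), followed by Gad1 at 36.3 ± 1.33, Npy at 25.8 ± 4.64, Gad2 at 22.7 ± 2.02, Pvalb at 17.9 ± 1.87, Slc32a1 at 17.2 ± 2.67, Lamp5 at 15.7 ± 1.71, Vip at 5.18 ± 0.589 and Reln at 2.33 ± 0.189 FPKM. Neighbours whose libraries overlapped in RMF were Cck and Sst, Npy and Gad2, and the run of Pvalb, Slc32a1 and Lamp5, so their order is not resolved. In sham libraries the order was Cck, Sst, Gad1, Gad2, Npy, Lamp5, Slc32a1, Pvalb, Vip and Reln, and Sst stood at 118 ± 10.02 FPKM (n = 3); Cck and Sst, Gad2 and Npy, Lamp5 and Slc32a1, and Slc32a1 and Pvalb overlapped there. In WT libraries Sst averaged 147 ± 15.1 FPKM and Cck 144 ± 75.2 FPKM (n = 4), which overlapped, and Lamp5 averaged 37.3 ± 41.1 FPKM with WT 3 far above the rest. Of neighbours in the WT order, Gad1 and Gad2, and Vip and Reln, did not overlap, and the others did. Vip and Reln were the lowest members in all 3 groups.

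WT 3 stood apart for these genes, and this bears on every comparison with WT. Levels from here on are CPM, counts scaled to the counts on tested genes in each library and between libraries by TMM. WT 3 held the highest level of 8 of the 10 members among the 11 libraries, all but Gad2 and Reln; over all tested genes it was highest for 25.2% and lowest for 26.1%. Lamp5 stood at 295 CPM in WT 3 against 42.4 to 66.9 CPM in the other WT libraries, 5.71 times their mean. For Vip the values were 63.5 CPM against 13.4 to 16.7 CPM (4.37 times), for Pvalb 40.1 against 16.5 to 20.5 CPM (2.20 times) and for Npy 37.2 against 18.9 to 19.96 CPM (1.9 times). The general inhibitory markers differed less there, with 1.15 times the mean of the other WT libraries for Gad1, 1.23 times for Slc32a1 and 0.906 times for Gad2. Markers of neocortex without Lamp5 summed to 1905 CPM in WT 3 and to between 855 and 1315 CPM in the other 10 libraries, the highest of those being sham 4. Mef2c alone held 762 CPM of that sum in WT 3 and 127 to 326 CPM elsewhere. The list was mixed: Cux2 and Rorb were highest in WT 3, while Tle4, Hsd11b1 and Sulf2 were lowest there. Markers of dentate granule cells summed to 465 CPM in WT 3 and to between 666 and 940 CPM elsewhere, and markers of CA1, CA2 and CA3 to 539 against 928 to 1049 CPM. Within these lists Dsp and Fibcd1 were lowest in WT 3, while Calb1, Pdzd2, Npnt and Pcp4 were highest there. The part of these differences in tissue markers in the levels of the members was not tested. Differences against WT are therefore also given without WT 3 where that changes their direction or size.

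**Figure D1:**
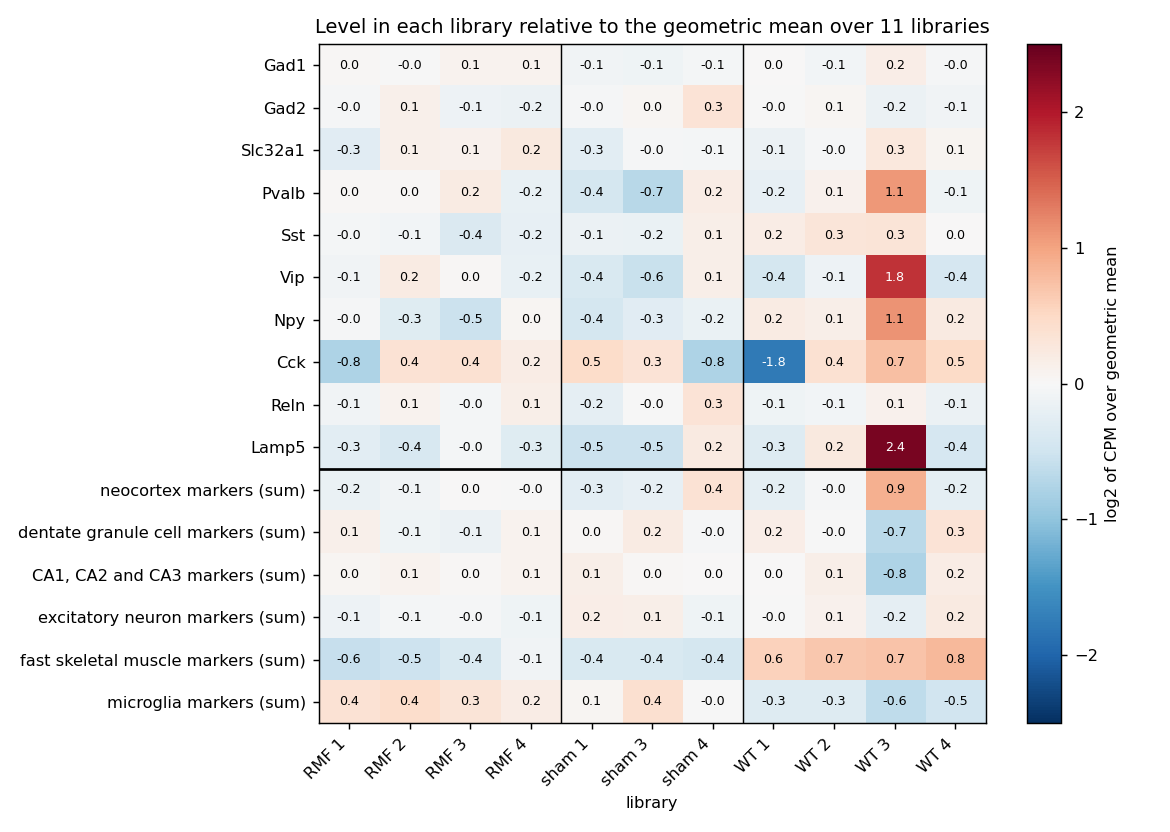
Level of each gene (upper rows) and the summed level of marker lists without members (lower rows) in each of the 11 libraries, as log2 of CPM over the geometric mean of all libraries; red is higher and blue is lower. WT 3 is high for Lamp5, Vip, Npy, Pvalb and the neocortex markers, and Cck is low in RMF 1, sham 4 and WT 1.

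The transcripts for GABA synthesis and loading were at similar levels in the 3 groups. Gad1 averaged 287 ± 9.16 CPM in RMF, 262 ± 4.81 CPM in sham and 282 ± 21.8 CPM in WT libraries (SD, n = 4, 3 and 4). Gad2 averaged 138 ± 12.8, 156 ± 22.3 and 138 ± 8.89 CPM in the same groups, with sham 4 the highest of all libraries at 181 CPM. Slc32a1 averaged 49.6 ± 7.43 CPM in RMF, 44.1 ± 3.79 CPM in sham and 48.9 ± 5.93 CPM in WT. Libraries of the groups overlapped for all 3 genes, with the exception of Gad1 between RMF (274 to 294 CPM) and sham (258 to 267 CPM), which did not overlap. That difference in Gad1, 0.13 on the log2 scale with a 95% interval of -0.02 to 0.28, did not pass edgeR's quasi-likelihood test (adjusted p = 0.762). Fitted without WT 3, which belongs to neither group but enters the shared estimate of spread, it was 0.13 with an interval of 0.02 to 0.24 (adjusted p = 0.394 by edgeR, range over 20 alternatives 0.364 to 0.989). In this comparison 5.93% of all tested genes were higher in RMF without overlap. For sham against WT the intervals of the log2 difference ran from -0.26 to 0.05 for Gad1, from -0.05 to 0.41 for Gad2 and from -0.44 to 0.14 for Slc32a1. For RMF against WT they ran from -0.12 to 0.17, from -0.21 to 0.22 and from -0.25 to 0.29. Without WT 3 the log2 differences of Gad1, Gad2 and Slc32a1 were -0.05, 0.14 and -0.07 for sham, and 0.08, -0.03 and 0.10 for RMF, against WT; that of Gad2 in RMF had been 0.0058 with it. These bounds are the size of change that the libraries leave possible, since a missed threshold does not show equal levels.

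**Figure D2:**
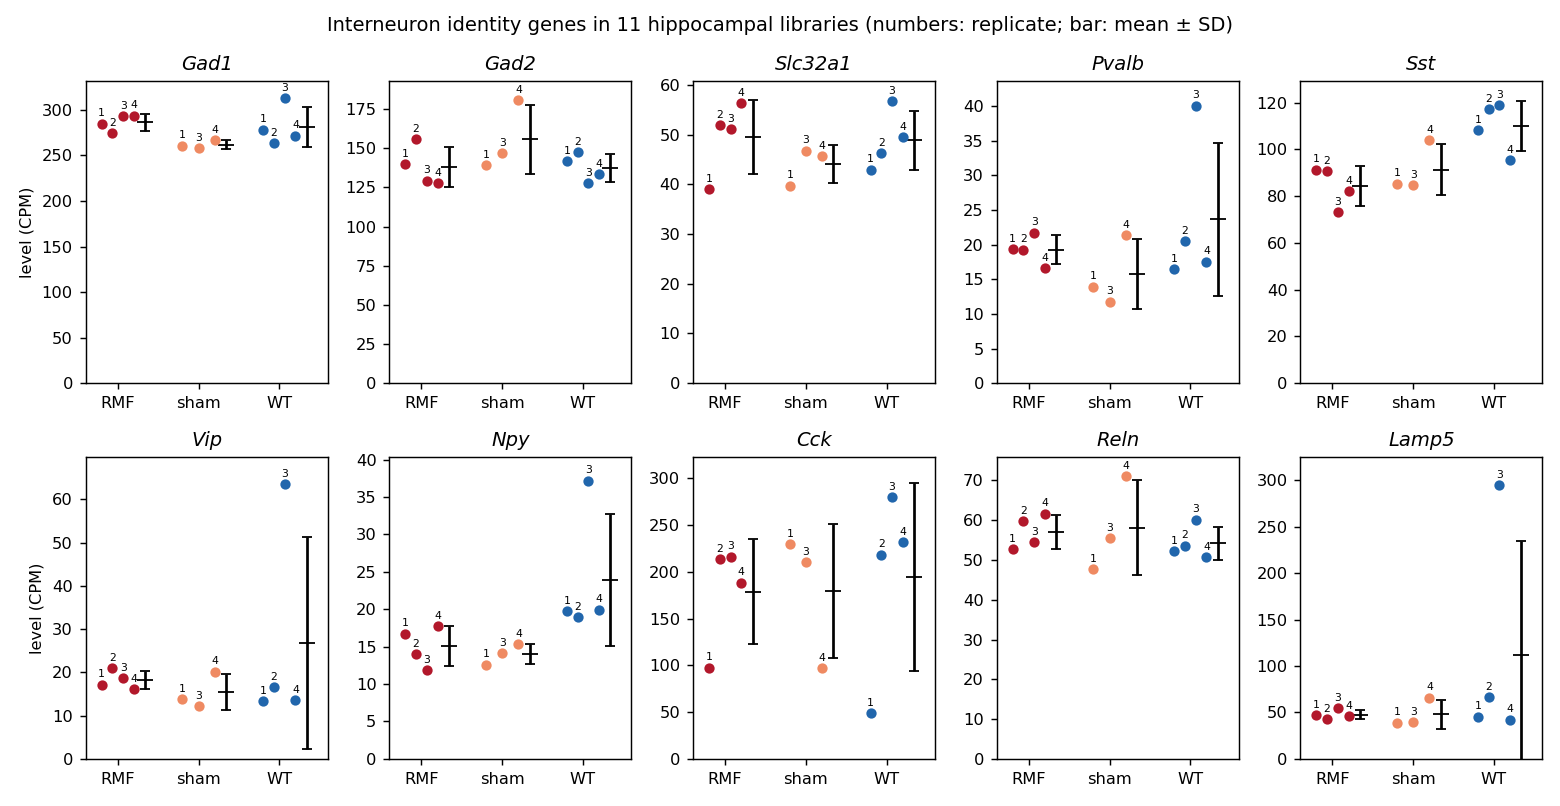
Level of the 10 interneuron genes in CPM (vertical axis, starting at 0) in APP/PS1 RMF, APP/PS1 sham and WT libraries; each point is 1 library with its replicate number, and bars are the mean ± SD. All RMF and sham libraries lie below all WT libraries for Npy, at 11.9 to 17.7 CPM against 18.9 to 37.2 CPM, and the lower SD bar of Lamp5 in WT runs past 0.

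Npy was the member whose APP/PS1 libraries all lay below all WT libraries. It stood at 16.7, 14.0, 11.9 and 17.7 CPM in RMF 1 to 4, at 12.6, 14.2 and 15.3 CPM in sham 1, 3 and 4, and at 19.8, 18.9, 37.2 and 19.96 CPM in WT 1 to 4. The highest APP/PS1 library, RMF 4, was thus under the lowest WT library, WT 2, and among all tested genes 0.936% showed this arrangement in that direction. Against WT, Npy was 0.586-fold in sham (log2 difference -0.77, SE 0.238, adjusted p = 0.226 by edgeR) and 0.629-fold in RMF (log2 difference -0.67, SE 0.218, adjusted p = 0.329 by edgeR), so neither passed. Leaving out WT 3, the highest library, could not bring the groups into overlap. Without it the folds were 0.718 for sham (95% interval of the log2 difference -0.80 to -0.16, adjusted p = 0.227 by edgeR) and 0.771 for RMF (-0.67 to -0.08, adjusted p = 0.348 by edgeR). Over 20 alternatives the adjusted p ranged from 0.0581 to 0.494 for sham and from 0.103 to 0.696 for RMF, the lowest of each by DESeq2. RMF and sham libraries overlapped, with a log2 difference of 0.10 and an interval of -0.41 to 0.62.

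Sst gave a smaller and partly separated difference. It stood at 91.4, 90.7, 73.2 and 82.1 CPM in RMF 1 to 4, at 85.4, 84.7 and 104 CPM in sham 1, 3 and 4, and at 108, 117, 119 and 95.4 CPM in WT 1 to 4. All RMF libraries lay below all WT libraries, while sham 4 lay above WT 4. Against WT, Sst was 0.767-fold in RMF (log2 difference -0.38, 95% interval -0.61 to -0.16), and its adjusted p of 0.161 by edgeR did not pass; DESeq2, run as an alternative, gave a log2 difference of -0.39 with an adjusted p of 0.0393. Adjusted p of this difference ranged from 0.0393 to 0.424 over 20 alternatives. Its direction was the same in all 20, but these reuse the same libraries. As the 2 groups did not overlap, leaving out 1 library could hardly have reversed it. For sham against WT the fold was 0.831 (log2 difference -0.27, interval -0.51 to -0.02, adjusted p = 0.339 by edgeR). Without WT 3 the log2 differences were -0.34 for RMF and -0.23 for sham. The difference between RMF and sham was -0.12 (interval -0.36 to 0.13, adjusted p = 0.87 by edgeR). In bulk tissue, fewer cells of a type and less RNA per cell cannot be told apart.

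Counted against the inhibitory transcripts of the same library, the same arrangement was seen. Per 100 counts of Gad1, Gad2 and Slc32a1 together there were 3.18 ± 0.575 Npy counts in RMF, 3.04 ± 0.148 in sham and 5.07 ± 1.61 in WT libraries, or 4.26 ± 0.129 in WT without WT 3 (SD, n = 4, 3, 4 and 3). For Sst the values were 17.8 ± 1.87 in RMF, 19.8 ± 1.19 in sham and 23.5 ± 1.92 in WT. The Npy ranges were 2.51 to 3.71 in RMF, 2.87 to 3.14 in sham and 4.13 to 7.48 in WT, which left APP/PS1 and WT libraries apart. For Sst the highest sham library stood at 21.1 and the lowest WT library at 21.0, while RMF reached 19.7. These ratios are a description and were not tested.

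**Figure D3:**
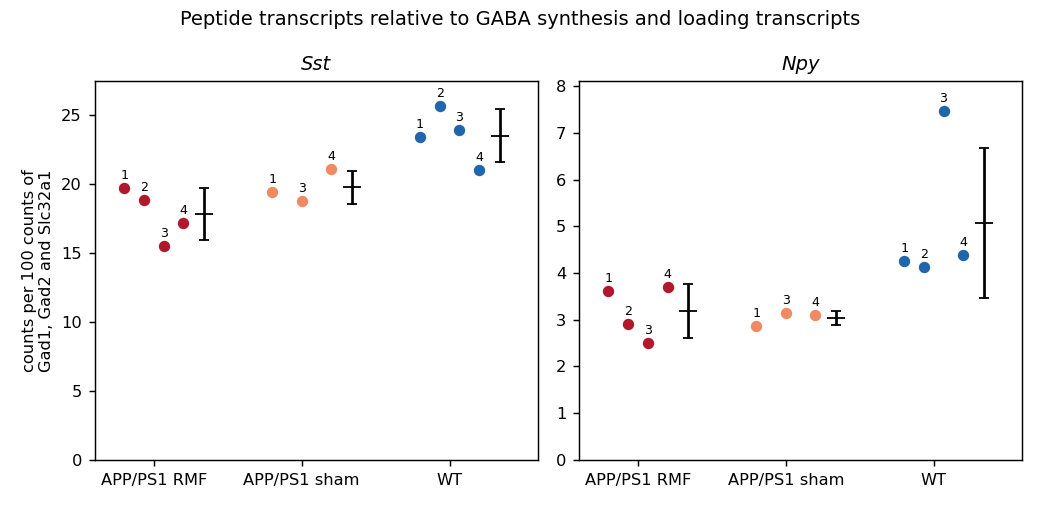
Counts of Sst (left) and Npy (right) per 100 counts of Gad1, Gad2 and Slc32a1 in each library of APP/PS1 RMF, APP/PS1 sham and WT (points with replicate numbers; bars are the mean ± SD; axes start at 0). For Npy all 7 APP/PS1 points lie at or below 3.71 and all WT points at or above 4.13.

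Vip, Lamp5 and Pvalb had lower averages in both APP/PS1 groups than in WT, in which WT 3 was far above the other libraries. Vip stood at 17.2, 21.0, 18.6 and 16.1 CPM in RMF 1 to 4, at 13.9, 12.3 and 20.2 CPM in sham 1, 3 and 4, and at 13.4, 16.7, 63.5 and 13.5 CPM in WT 1 to 4. With WT 3 the log2 differences of Vip were -0.55 for RMF and -0.79 for sham against WT (adjusted p = 0.787 and 0.491 by edgeR), and without it they were 0.33 and 0.09, in the opposite direction. Between RMF and sham the Vip difference was 0.24 (interval -0.84 to 1.32). With 1 library left out it ranged from 0.10 without sham 3 to 0.47 without sham 4. Lamp5 stood at 47.3, 42.9, 55.1 and 45.8 CPM in RMF 1 to 4, at 39.0, 39.3 and 66.0 CPM in sham 1, 3 and 4, and at 45.4, 66.9, 295 and 42.4 CPM in WT 1 to 4. Its log2 differences of -1.23 for RMF and -1.22 for sham were the largest among the members (adjusted p = 0.584 and 0.406 by edgeR), and they shrank to -0.11 and -0.10 without WT 3. The other 3 WT libraries overlapped the APP/PS1 libraries for both genes.

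Pvalb stood at 19.4, 19.3, 21.7 and 16.6 CPM in RMF 1 to 4, at 14.0, 11.8 and 21.4 CPM in sham 1, 3 and 4, and at 16.5, 20.5, 40.1 and 17.6 CPM in WT 1 to 4. Sham 1 and sham 3 were the lowest of the 11 libraries and WT 3 the highest, and all groups overlapped. Against WT the log2 differences were -0.30 for RMF and -0.59 for sham (adjusted p = 0.823 and 0.417 by edgeR), and 0.08 and -0.21 without WT 3. Between RMF and sham the difference was 0.29 (interval -0.37 to 0.95). With 1 library left out it ranged from 0.12 without sham 3 to 0.58 without sham 4. Fast skeletal muscle genes differed between both APP/PS1 groups and WT. Of 12 tested markers, Pvalb included, 0 rose and 9 fell in sham against WT, and likewise 0 and 9 in RMF. The 15 markers other than Pvalb summed to between 50.8 and 71.8 CPM in RMF, 55.8 and 58.4 CPM in sham and 113 and 133 CPM in WT, and of these sums 42.5 to 61.5 CPM was Ryr1. Tnnc2, a fast troponin gene, stood at 0 CPM in sham 1, 3 and 4, RMF 2 and RMF 4, while Atp2a1, the fast-fibre calcium pump, stood at 0.202 to 0.537 CPM in RMF, 0.231 to 0.275 CPM in sham and 8.91 to 13.3 CPM in WT. The part of muscle transcripts in the Pvalb level was not tested.

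Cck varied widely within every group. It stood at 97.6, 213, 216 and 189 CPM in RMF 1 to 4, at 229.7, 211 and 97.5 CPM in sham 1, 3 and 4, and at 48.8, 218, 279.8 and 232 CPM in WT 1 to 4. One library of each group was therefore low, RMF 1, sham 4 and WT 1, and the other 8 lay between 189 and 279.8 CPM. The log2 differences were -0.12 for sham and for RMF against WT and -0.0022 for RMF against sham, with wide intervals (-1.21 to 0.97, -1.13 to 0.89 and -1.09 to 1.08). Without WT 3 the differences against WT turned to 0.11 for both sham and RMF. Nrgn, which encodes the postsynaptic calmodulin-binding protein neurogranin of excitatory neurons, was among the 3 genes with the most similar profile. It stood at 283 CPM in RMF 1, 319 CPM in sham 4 and 253 CPM in WT 1, against 534 to 951 CPM in the other libraries. Because Nrgn was picked for that likeness, its low values there follow from the choice. Other excitatory neuron markers were mixed in these libraries. Slc17a7 was lowest of its group in RMF 1 (1021 CPM) and sham 4 (1001 CPM) but not in WT 1 (1195 CPM). Neurod6 stood at 292 CPM in RMF 1, its highest RMF value.

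Reln averaged 57.1 ± 4.27 CPM in RMF, 58.1 ± 11.9 CPM in sham and 54.2 ± 4.11 CPM in WT libraries (SD, n = 4, 3 and 4), and all groups overlapped, with sham 1 the lowest library at 47.7 and sham 4 the highest at 71.1 CPM. Its intervals of the log2 difference ran from -0.17 to 0.37 for sham and from -0.17 to 0.33 for RMF against WT, and the differences without WT 3 were 0.15 and 0.13. Of 9 tested genes of the reelin pathway and 4 of Cajal-Retzius cells, both counts including Reln, 0 passed in any comparison. Lrp8, the neuronal reelin receptor ApoER2, had the largest difference of the list for sham against WT (113 and 100.1 CPM on average, log2 difference 0.18, adjusted p = 0.32 by edgeR) and for RMF against sham (99.1 and 113 CPM, log2 difference -0.19, adjusted p = 0.719 by edgeR). For RMF against WT it was Crkl, an adaptor protein downstream of reelin receptors (62.0 and 55.4 CPM, log2 difference 0.16, adjusted p = 0.56 by edgeR). Among the Cajal-Retzius genes it was Calb2, the calcium buffer calretinin, in every comparison, at 10.5 CPM on average in RMF, 13.4 CPM in sham and 9.56 CPM in WT.

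In all, 0 of the 10 members passed edgeR's test at an adjusted p under 0.05 in sham against WT, where 0.929% of all genes did, 0 in RMF against WT, where 1.19% did, and 0 in RMF against sham, where 0% did. At an unadjusted p under 0.05 there were 2 members for sham against WT (Npy and Sst; 13.2% of all genes), 3 for RMF against WT (Sst, Npy and Lamp5; 8.40% of all genes) and 0 for RMF against sham (6.89% of all genes). The log2 difference was below 0 for 8 members in sham against WT (50.3% of all genes), 6 in RMF against WT (50.2%) and 5 in RMF against sham (50.5%). Groups did not overlap for 1 member lower in sham than in WT (6.00% of all genes lower in this way) and for 2 lower in RMF than in WT (2.54%). The median log2 difference of the members was -0.21 for sham and -0.21 for RMF against WT, next to medians of all tested genes of -0.0019 and -0.0007. Without WT 3 the members' medians were -0.06 and 0.08. 0 members then passed for sham against WT (1.06% of all genes), RMF against WT (1.41%) and RMF against sham (0%). At an unadjusted p under 0.05 there were then 1 for sham against WT (Npy; 11.7% of all genes), 2 for RMF against WT (Sst and Npy; 9.83%) and 1 for RMF against sham (Gad1; 11.5%), and 6, 4 and 5 members were below 0. Both comparisons with WT share the WT libraries, and both with sham share the sham libraries, so they are not independent. DESeq2 called 0, 1 and 0 members for sham against WT, RMF against WT and RMF against sham, the 1 being Sst. Of the 14428 genes it called 345, 315 and 16 in these comparisons.

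**Figure D4:**
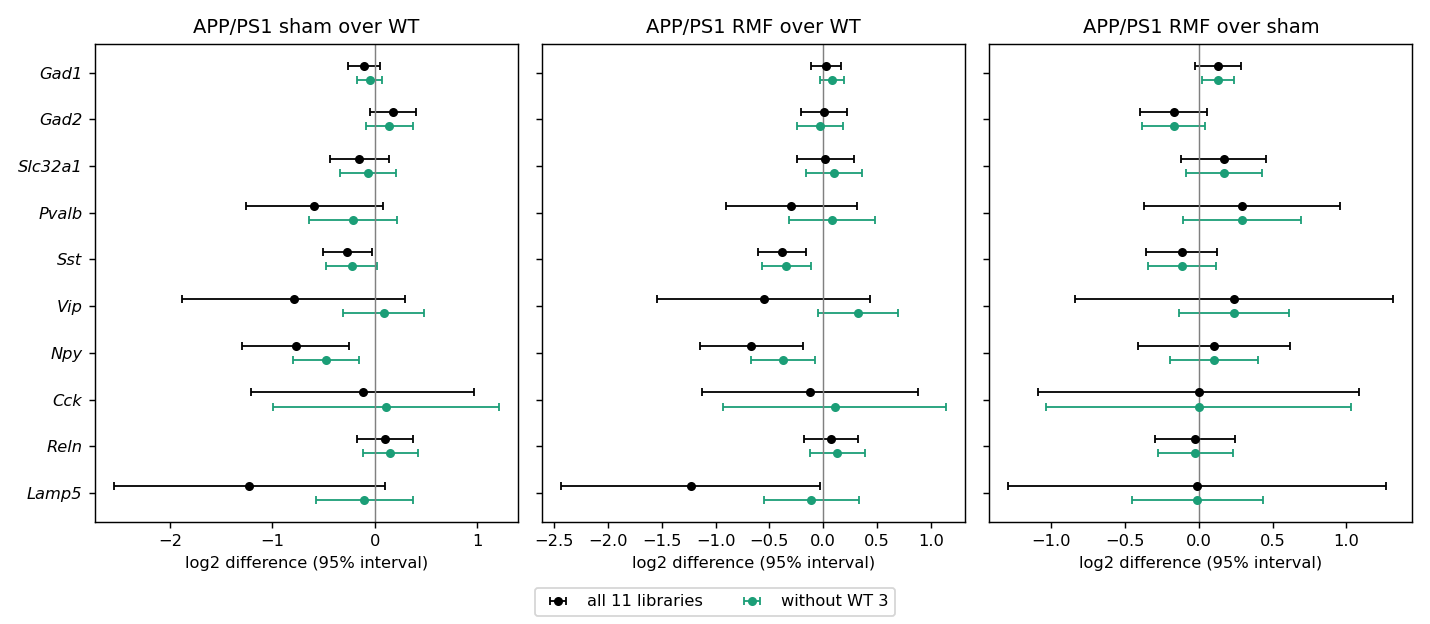
Log2 difference of each gene with its 95% interval (horizontal axis) for APP/PS1 sham over WT, APP/PS1 RMF over WT and APP/PS1 RMF over sham, with all 11 libraries (black) and without WT 3 (green). The differences of Vip, Lamp5, Pvalb and Npy against WT all move toward or across 0 without WT 3. Those of Npy move from -0.77 to -0.48 for sham and from -0.67 to -0.37 for RMF. Those of Lamp5 in both groups and of Pvalb in sham also stay below 0.

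The wider inhibitory gene lists were tested in the same fit, and their counts and medians include members. The GABA list holds Gad1, Gad2 and Slc32a1, and the basket cell list holds Pvalb. The somatostatin list holds Sst, Npy and Reln, and the VIP and CCK list holds Vip, Cck, Lamp5, Npy and Reln. No gene passed in any of the 3 comparisons among 10 tested genes of GABA synthesis, uptake and breakdown, 14 interneuron transcription factor genes, 11 genes of fast-spiking basket cells, 13 genes of somatostatin cells, 21 genes of VIP, CCK and other caudal interneurons, and 10 receptors of the peptides. Median log2 differences of these 6 lists lay between -0.08 and 0.12 for sham against WT, between -0.13 and 0.01 for RMF against WT and between -0.16 and 0.01 for RMF against sham. Without WT 3 no gene of these lists passed either, and the medians lay between -0.06 and 0.23 for sham and between -0.12 and 0.08 for RMF against WT. Crh, the stress peptide corticotropin-releasing hormone, stood at 1.17 CPM on average in RMF, 0.88 CPM in sham and 3.13 CPM in WT (log2 differences of -1.42 and -1.83 against WT, adjusted p = 0.667 and 0.381 by edgeR). WT 3 held 8.79 CPM, and without it WT averaged 1.25 CPM and the differences were -0.10 and -0.51. Cckbr, the brain receptor for cholecystokinin, averaged 13.8 CPM in RMF, 12.3 CPM in sham and 33.3 CPM in WT (log2 differences of -1.27 and -1.44, adjusted p = 0.696 and 0.45 by edgeR), and WT 3 alone held 97.4 CPM; without it they were 0.21 and 0.04. Slc6a13, the GABA transporter GAT2, was 0.643-fold in RMF and 0.545-fold in sham against WT (adjusted p = 0.757 and 0.458 by edgeR). It stood at 9.85 CPM in WT 3, and without that library the log2 differences were 0.15 and -0.09. Cox6a2, a subunit of cytochrome oxidase, had the largest difference of the basket cell list for RMF against WT (1.17 and 1.68 CPM, log2 difference -0.52, adjusted p = 0.809 by edgeR), and 0.13 without WT 3. Nr2f2, a transcription factor of caudally derived interneurons, was 1.42-fold in sham against WT (adjusted p = 0.457 by edgeR), with a log2 difference of 0.51, or 0.40 without WT 3. Its sham mean was raised by sham 3 at 14.9 CPM. Sham 1 (9.07 CPM) and sham 4 (8.78 CPM) lay within the WT range of 5.81 to 9.74 CPM.

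For RMF against sham, the genes with the largest difference of their lists were Dlx2, a homeobox gene of interneuron development (0.641-fold, adjusted p = 0.719 by edgeR), Lgals1, the galectin-1 gene (1.24-fold, adjusted p = 0.722), Pdyn, the dynorphin precursor gene (1.22-fold, adjusted p = 0.8), Sstr1, a somatostatin receptor (1.43-fold, adjusted p = 0.763), and Tac2, the neurokinin B gene (1.37-fold, adjusted p = 0.89), and none of them passed. Markers of microglia summed to between 598 and 711 CPM in RMF, 521 and 691 CPM in sham and 340 and 419 CPM in WT; 8 of 12 rose in RMF and 3 of 12 in sham against WT, and 0 fell. Markers of intestine, an organ whose neurons and endocrine cells also make Vip, Sst, Npy and Cck, summed to between 20.5 and 52.9 CPM in RMF, 46.9 and 54.3 CPM in sham and 2.31 and 7.60 CPM in WT, and 5 of 7 tested rose in each APP/PS1 group against WT. Liver markers, of which 9 of 14 rose in RMF and 13 of 14 in sham, summed to between 120.0 and 298 CPM in RMF, 256 and 380.4 CPM in sham and 36.9 and 205 CPM in WT. Ttr, the transthyretin gene also made by choroid plexus, was 16.0 to 199 CPM of the WT sums; without it the liver sums were 99.99 to 194 CPM in RMF, 226 to 356 CPM in sham and 1.57 to 20.8 CPM in WT. Their part in the levels of the peptides was not tested. Markers of excitatory neurons summed to between 5312 and 5662 CPM in RMF, 5381 and 6545 CPM in sham and 4959 and 6824 CPM in WT.

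Genes with the most similar profile were sought for the 5 members whose log2 levels varied by an SD over 0.25, as the smallest root mean square difference of centred log2 levels over the 11 libraries. For Lamp5 they were C130074G19Rik, Pamr1 and B230216N24Rik, at 0.12, 0.17 and 0.18 log2 units. Genes chosen in this way share the extreme libraries of the member, so all 3 were highest in WT 3. For Vip they were Rgs4, Gucy1a1 and Osbpl1a at 0.16 each; Rgs4, a regulator of G-protein signalling, stood at 455 CPM in WT 3 and at 128 to 170 CPM elsewhere. For Pvalb they were Kcnab3os, 1110018N20Rik and Plaat1 (0.10, 0.10 and 0.14) and for Npy Gm21953, Slc6a20a and Gm21586 (0.15, 0.17 and 0.17). Kcnab3os, Gm21953 and Gm21586 did not exceed 1.81 CPM in any library, near the 0.5 CPM added before the logarithm. For Cck they were Rgcc, Nrgn and Trir, at 0.25, 0.27 and 0.27.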

How the data were processed

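Counts per gene and FPKM were taken from the table the authors deposited, in which both stand side by side for 36826 genes. Per the labels' protocols, oligo(dT)-selected RNA (5 µg of total RNA) was sequenced as paired reads of 150 bp and trimmed with Cutadapt 1.9. HISAT2 2.0.4 and StringTie 1.3.4d are listed, beside edgeR, in the submitters' processing notes, with a human genome build although the gene IDs are of mouse. How reads were counted, with or without strand, and the mouse build are not given in those sources. Of 34503 gene IDs also in the GRCm38 annotation, 676 had the same start and end, so table coordinates are not printed. The 2 columns whose name matched no sample were not used.

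Library totals lay between 68124548 and 70786786 counts; the smallest count of a member was 813 (Pvalb in sham 3), a counting error of 3.51%, so the spread between libraries and not depth set the precision. Replicate pairs had 18.7 to 304 as the chi-square over its degrees of freedom, more than counting noise gives, so each library was counted once. Mitochondrial transcripts took 9.53% of counts in sham 4 and 5.76% to 7.39% elsewhere.

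edgeR 4.0.16 (R 4.3.3) fitted all 11 libraries in 1 quasi-likelihood model of 3 groups over the 14428 genes whose FPKM reached 1 in 3 or more libraries, with Benjamini-Hochberg adjustment over all of them and a threshold of 0.05; the step was tested on simulated data. SE and 95% intervals derive from its F statistic. Alternatives were DESeq2 1.42.0, limma 3.58.1 on log2(FPKM + 1), other scalings and filters, a replicate block, and each library left out. Named were all members, of each other list the genes past the threshold or with the largest difference (lists of other tissues mostly as counts), and for varying members the 3 genes nearest in profile (log2 of CPM + 0.5). Members and lists were chosen with earlier results of these data known; some lists share genes. WT 3 and sham 4 were left out together as an alternative chosen after seeing the data.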

Additional observations from a re-analysis of the deposited data

Results flagged for a closer look

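In the WT group, WT 3 lay far from the other 3 libraries, by the gap to the nearest library over the range of the group, for 4 members and 1 marker list: Pvalb at 40.1 CPM, Vip at 63.5 CPM, Npy at 37.2 CPM, Lamp5 at 295 CPM and the summed neocortex markers at 2200 CPM, where 906 to 1068 CPM were found in the other WT libraries. Of 26 groups examined in this way 5 stood out, all of them through WT 3. The rule flags about 1 in 20 independent groups, but these share the same libraries, so their count cannot be set against that rate. The list of neocortex markers contains Lamp5. Without it the sum in WT 3 was 1905 CPM, of which Mef2c was 762 CPM.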

How the results depend on the processing

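No alternative by edgeR or limma called a member in any comparison. DESeq2 called 1, Sst in RMF against WT, where it called 315 of all genes. The cause was not tested. Of 270 differences of members recomputed with other settings, 249 kept direction and call, 20 changed direction and 1 became a call. Of 330 with 1 library left out, 306 kept both and 24 changed direction. The 330 include refits without a library that belonged to neither group compared, where the difference could hardly move. The numbers of replicates did not pair the libraries (correlations of deviations from -0.34 to 0.27 in 10 pairs, 1 of them over 0.1; 3 of 11 libraries correlated best with their own number), and with the replicate block 0 members passed, with 87 genes called for sham against WT, 112 for RMF against WT and 0 for RMF against sham, against 134, 172 and 0 without it.

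Directions changed as follows, in members that had not passed. For RMF against sham, total counts gave log2 differences of 0.035 for Cck, 0.031 for Reln and 0.047 for Lamp5; limma gave 0.072, 0.025 and 0.070; a minimum FPKM of 0.1 gave 0.00086 for Cck and the replicate block 0.019 for Lamp5. Limma gave 0.00022 for Cck in sham and 0.072 in RMF against WT, the block gave 0.21 for Cck in sham against WT, and no filter gave -0.0014 for Gad2 in RMF against WT. Without WT 3 and sham 4, a setting chosen after seeing the data, sham against WT gave 0.40 for Cck and -0.017 for Reln, RMF against sham gave 0.15 for Reln and 0.29 for Lamp5, and RMF against WT gave -0.030 for Gad2, 0.081 for Pvalb, 0.32 for Vip and 0.10 for Cck. With FPKM in place of CPM, the ratio of mean Gad1 levels moved to 0.900 for sham over WT and to 1.13 for RMF over sham.

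Leaving out 1 library in turn gave ranges across 0. Cck ranged from -0.44 to 0.17 for sham against WT, from -0.44 to 0.11 for RMF against WT and from -0.30 to 0.22 for RMF against sham. For RMF against WT, Gad1 ranged from -0.0060 to 0.079, Gad2 from -0.056 to 0.042, Slc32a1 from -0.048 to 0.12, Pvalb from -0.44 to 0.082 and Vip from -0.79 to 0.33. For sham against WT, Vip ranged from -1.04 to 0.087 and Reln from -0.073 to 0.22. For RMF against sham, Reln ranged from -0.15 to 0.14 and Lamp5 from -0.14 to 0.28. Over all genes, calls for sham against WT were 76 with 2 groups fitted, 89 without sham 3, 304 without a filter, 345 by DESeq2 (251 higher, 94 lower) and 363 at a minimum FPKM of 0.1. For RMF against WT they were 260 without WT 3 and sham 4, 315 by DESeq2, 354 without a filter and 378 at a minimum FPKM of 0.1. For RMF against sham DESeq2 called 16 and edgeR without sham 1 called 1.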
